A study of Mus musculus with 6 samples.

Results

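Regulators of G protein signaling are a family of proteins that share an RGS domain, and 10 of their genes were examined, Rgs2, Rgs3, Rgs4, Rgs5, Rgs10, Rgs12, Rgs14, Rgs16, Rgs17 and Rgs19. They were chosen by name, and the family was taken up because Rgs4 was already known to be far higher in Slc39a13-KO chondrocytes on these same arrays. The comparison of KO with wild type is therefore given as a description of these genes. Their p-values are not printed, and calls or counts of them by p are no independent result. The array annotation assigns 27 of its 45101 probe sets to the 10 genes, which are 10 of 18193 genes with a probe set of their own. The cells were primary chondrocytes of the rib cartilage of newborn pups, wild-type or Slc39a13-KO, with 3 arrays each. Slc39a13 encodes a zinc transporter of the ZIP family, and the KO mice carry a Neo cassette in place of internal exons in the germline, so that every cell of the culture carries the deletion. The KO line came from targeted ES cells, the strain of the arrayed mice is not given in the sources used here, and whether mice were pooled is not stated. No treatment is described for either group.

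Heterotrimeric G proteins relay the signal of cell surface receptors while their alpha subunit holds GTP. The RGS domain speeds the hydrolysis of that GTP, so RGS proteins shorten the signal, mainly of the Gi and Gq classes. Chondrocytes use such receptors for parathyroid hormone-related protein, prostaglandins and lysophospholipids. Of the genes examined, Rgs2, Rgs3, Rgs4, Rgs5 and Rgs16 belong to the R4 subfamily of mostly small proteins, Rgs10, Rgs12 and Rgs14 to the R12 subfamily, and Rgs17 and Rgs19 to the RZ subfamily.

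Values are MAS5-type signals on a linear scale, and differences are KO minus wild type in log2(signal + 7.96), which understates the change of dim probe sets. Probe sets with a mean log2 value of at least 5.80 were tested with limma and called at an adjusted p under 0.05. Slc39a13 itself had signals of 901, 1081 and 991 on wild-type replicates 1, 2 and 3 and of 100.5, 196 and 165 on the KO replicates. No file used here places this probe set inside or outside the deleted exons. The arrays correlated with each other at 0.960 to 0.980 apart from KO replicate 1, which correlated at 0.94 to 0.95 with the other 5. The median signal of KO replicate 1 was 108, against 80.7 to 88.4 on the other 5. The part of this in the values of dim probe sets on that array was not tested. Xist, the transcript of the inactive X chromosome, was high on wild-type replicate 3 and KO replicate 2, so sexes were mixed within both groups. All 10 listed chondrocyte markers were above the signal filter. Of them 4 were higher and 0 lower in KO, and their summed signals were 111750 to 136930 on the wild-type and 162231 to 224663 on the KO arrays. Of 6 mesothelial markers 5 were lower and 0 were higher, with summed signals of 2701 to 4730 and 315 to 692. The summed signals of 9 tested pericyte and smooth muscle markers were 34063 to 39799 and 38702 to 43105, of which 1 was higher and 0 lower. Of 9 endothelial markers, 1 (Kdr) was above the filter, with summed signals of 59.4 to 118 and 71.8 to 146, and it did not pass. Of 10 macrophage and leukocyte markers, 5 were tested and none passed. Their summed signals were 609 to 797 and 527 to 807. Neuronal and glial markers had 3 of 7 tested and none passed (1894 to 1985 and 1706 to 2050). Skeletal muscle markers had 4 of 7 tested, with 1 higher and 1 lower (1850 to 1913 and 2102 to 2497). Of 8 fibroblast and perichondrium markers, 4 were higher and 2 lower (54672 to 66237 and 74434 to 95045). The part of these cell types in the values of the Rgs genes was not tested. The arrays measure whole cultures, where fewer cells of a type and less RNA per cell cannot be told apart.

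In Slc39a13-KO chondrocytes Rgs4 was higher, Rgs16 and Rgs17 were lower, and the other 7 genes had no called probe set. Of the 27 probe sets 23 passed the filter, with at least 1 for every gene. Among these 23, 5 were called, 3 higher and 2 lower, and they belong to Rgs4, Rgs16 and Rgs17. Over all 23309 tested probe sets, 6.80% were called. A difference of at least 2-fold was seen for 7 of the 23 probe sets, against 3.47% of all. The arrays of both groups were fully apart for 11 of the 23, against 28.8% of all. Since Rgs4 was picked for its difference, nothing is read from these counts. The median difference of the 23 probe sets was -0.08 and that of all tested probe sets 0.01. Without the 3 of Rgs4, the highest difference among the remaining 20 was 0.87 and their median was -0.13. The Rgs5 probe set 1420941_at, under the filter and so not among these, had a difference of 2.78 from dim signals, described below.

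**Figure D1:**
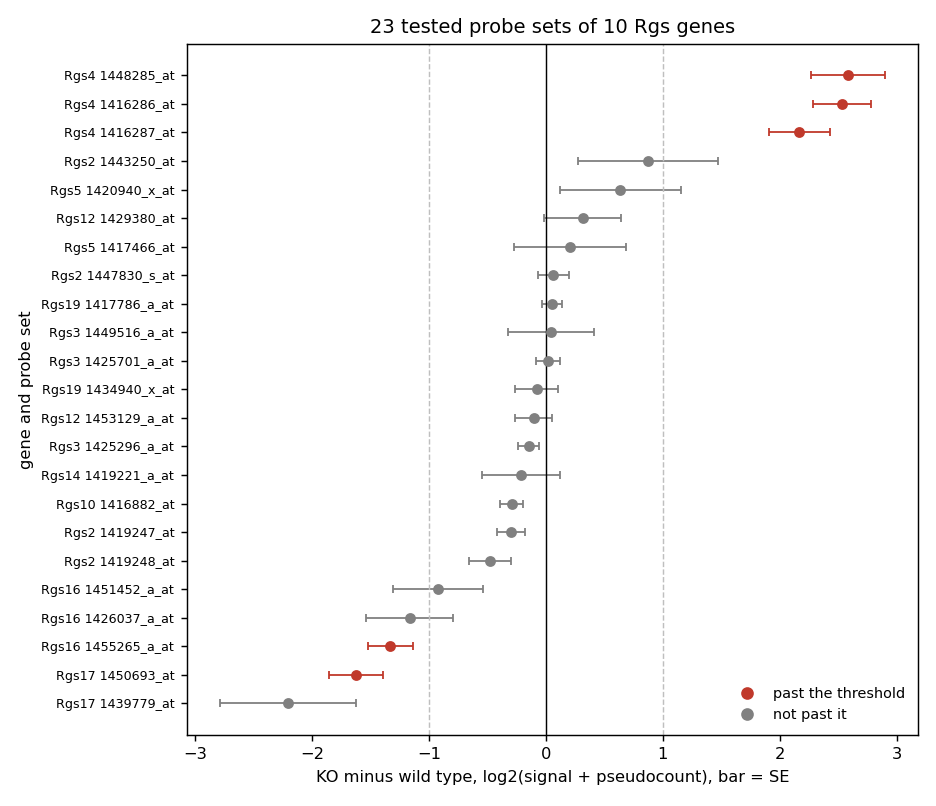
Difference KO minus wild type in log2(signal + 7.96) for the 23 tested probe sets of 10 Rgs genes, ordered by size, with bars for the standard error from limma, dashed lines at a 2-fold difference, and called probe sets in red. The 3 Rgs4 probe sets lie at 2.17 to 2.59, apart from the 20 others, and the lowest 5 belong to Rgs16 and Rgs17. The 4 probe sets under the filter, among them 1420941_at of Rgs5 with 2.78, are not shown.

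Rgs4, which acts on Gi and Gq alpha subunits and is best known from brain and heart, ranked 3 among 12726 genes by increase. It lies at chr1:169741477-169747642 on the minus strand (GRCm38.p6). On its brightest probe set, 1416286_at, the wild-type signals were 396, 389 and 329 and the KO signals 1332, 2697 and 2898 on replicates 1, 2 and 3. Every KO array was above every wild-type array, and KO replicate 1 was well below the other KO arrays. The means were 371 ± 37.0 (SD, n = 3 arrays) and 2309 ± 852 (SD, n = 3), a ratio of 6.22 and a log2 difference of 2.54 (standard error 0.25). On 1416287_at the signals were 367, 303 and 235 in wild type and 860, 1808 and 1627 in KO, a difference of 2.17 (standard error 0.26). On 1448285_at they were 215, 237 and 129.5 in wild type and 682, 1580 and 1478 in KO, a difference of 2.59 (standard error 0.32). All 3 probe sets were past the threshold, which the choice of Rgs4 on these arrays makes no independent result, and gave KO replicate 1 the lowest of the KO values. The probe sets followed each other across the 6 arrays with Pearson correlations of 0.991 to 0.994, which are dominated by the gap between groups.

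The spread of Rgs4 was wider among KO than among wild-type arrays, with SDs of 0.62 and 0.15 in log2 on the brightest probe set. With KO replicate 1 left out, the difference of this probe set was 2.89, and without any other array it was 2.33 to 2.58. Within the 4 arrays with low Xist it was 2.30 (2 against 2), and between the pair of arrays with high Xist it was 3.01 (1 against 1, no replicate). The 2 dimmer probe sets were not past the threshold without limma's variance trend, and none of the 3 was with the methods' t-test after adjustment.

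**Figure D2:**
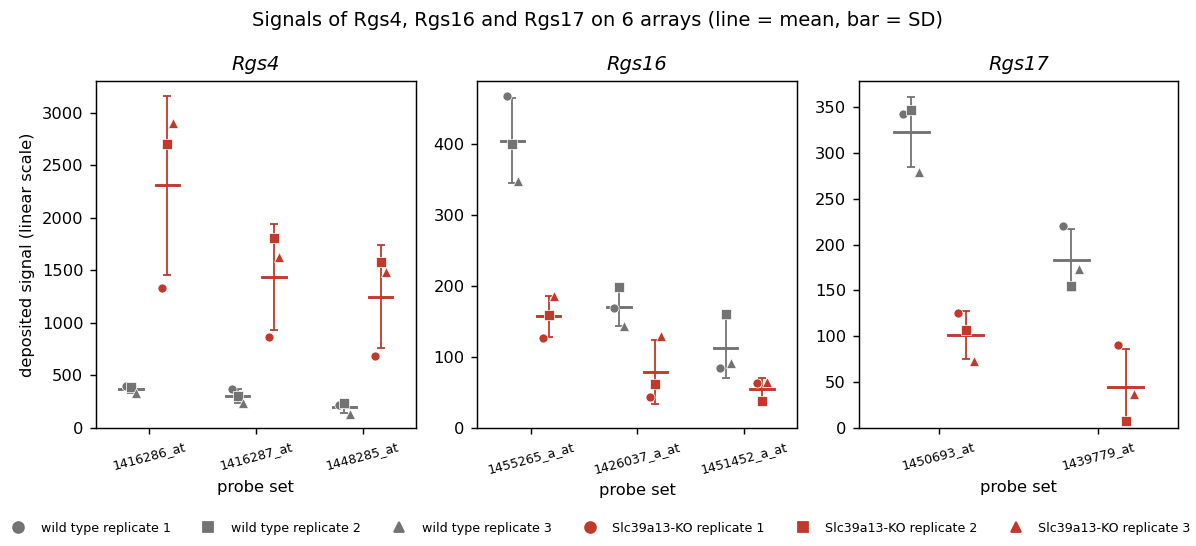
Deposited signals of each probe set of Rgs4, Rgs16 and Rgs17 on 3 wild-type (gray) and 3 Slc39a13-KO (red) arrays, with a symbol for each replicate, lines at the mean and bars for the SD. For Rgs4 every KO array is above every wild-type array, from 682 to 2898 against 129.5 to 396, and for Rgs16 and Rgs17 every KO array is below the wild-type arrays of the same probe set.

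Rgs17 of the RZ subfamily, which acts on Gi and Gz alpha subunits, fell on its brightest probe set. It lies at chr10:5825663-5922412 on the minus strand. On 1450693_at the wild-type signals were 342, 347 and 279 and the KO signals 125, 107 and 72.6. The groups were apart, with means of 323 ± 37.8 (SD, n = 3) and 101 ± 26.5 (SD, n = 3), wild type being 3.19 times KO. The log2 difference was -1.62 (standard error 0.23), the decrease of rank 49 among all genes. On 1439779_at the wild-type signals were 220, 155 and 173 and the KO signals 89.8, 7.72 and 36.9. The groups were again apart with a difference of -2.21 (standard error 0.58), but the KO arrays were far apart from each other and this probe set did not pass. It passed without KO replicate 1, with a difference of -2.83, with a larger pseudocount, the 25th percentile of all values (-1.69), with quantile normalization (-2.30) and with either the replicate number or the Xist class as a block (-2.21 each).

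Rgs16, an R4 member that acts on Gi and Gq alpha subunits, also fell on its brightest probe set. It lies at chr1:153740353-153745468 on the plus strand, on the chromosome of Rgs2, Rgs4 and Rgs5. On 1455265_a_at the wild-type signals were 468, 400.0 and 348 and the KO signals 127, 159 and 185. The highest KO array stayed well below the lowest wild-type array. The means were 405 ± 60.1 (SD, n = 3) and 157 ± 29.3 (SD, n = 3), wild type being 2.58 times KO, a log2 difference of -1.33 (standard error 0.19). On 1426037_a_at the signals were 169, 199 and 144 in wild type and 43.5, 62.0 and 129 in KO, a difference of -1.16 (standard error 0.37). On 1451452_a_at they were 84.8, 160 and 91.3 against 62.5, 37.0 and 63.9, a difference of -0.92 (standard error 0.38). The groups did not overlap on either of these dimmer probe sets, but neither passed the threshold, and 1426037_a_at passed without KO replicate 3 (-1.56). The calls of Rgs16 and Rgs17 held with any array left out and were lost without limma's trend, with the methods' t-test after adjustment and among the 4 arrays with low Xist, where the differences were -1.45 and -1.77.

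The sequence before the start of each of the 3 genes is shown because these are the members on which the results turn. RefSeq gives a promoter window for 9 of the 10 genes, and the 250 bases before the transcript start it uses are printed 5′ to 3′ on the strand of the gene (GRCm38.p6). For Rgs17 that start lies just inside the span of the gene given above. They are chr1:169747643-169747892 for Rgs4, chr1:153740103-153740352 for Rgs16 and chr10:5922401-5922650 for Rgs17. Capitals mark matches on either strand to the E-box letters CANNTG, the AP-1 letters TGANTCA, the cAMP response letters TGACGTCA and the TATA letters TATAAA.
Rgs4: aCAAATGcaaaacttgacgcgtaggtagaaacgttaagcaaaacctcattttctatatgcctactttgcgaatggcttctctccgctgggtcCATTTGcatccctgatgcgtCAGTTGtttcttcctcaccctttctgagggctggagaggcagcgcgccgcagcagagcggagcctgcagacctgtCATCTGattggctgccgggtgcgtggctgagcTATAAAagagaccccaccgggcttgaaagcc
Rgs16: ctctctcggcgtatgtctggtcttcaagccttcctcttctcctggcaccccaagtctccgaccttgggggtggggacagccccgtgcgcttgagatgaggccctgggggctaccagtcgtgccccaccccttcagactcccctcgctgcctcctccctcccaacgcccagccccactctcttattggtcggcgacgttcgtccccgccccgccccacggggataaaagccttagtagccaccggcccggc
Rgs17: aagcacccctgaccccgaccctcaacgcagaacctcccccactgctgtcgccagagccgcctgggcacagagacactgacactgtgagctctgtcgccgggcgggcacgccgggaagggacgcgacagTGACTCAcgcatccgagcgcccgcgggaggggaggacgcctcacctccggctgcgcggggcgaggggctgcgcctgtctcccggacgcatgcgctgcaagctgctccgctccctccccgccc

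The Rgs4 window held 4 matches to CANNTG, which start 249, 158, 138 and 63 bases before the gene, and 1 to TATAAA at 31 bases. CANNTG is found in 66.2% of 32851 promoter windows of the same length and TATAAA in 12.4%. The Rgs16 window held none of these letters, and the Rgs17 window held 1 match to TGANTCA, found in 6.75% of windows. TGACGTCA, in 1.55% of windows, was in none of the 13 windows of the 9 genes. The Smad letters GTCTAGAC (0.167% of windows) were in none of the 13 either, and CAGACA (17.1%) was in the Rgs16 window but not in those of Rgs4 or Rgs17. Members without a call had matches too. CANNTG was found for Rgs3, Rgs12 and Rgs19, TATAAA for Rgs3, TGANTCA for Rgs12, and CAGACA for Rgs3 and Rgs12. The Rgs4 window had a GC content of 53.6% and 13 CpG, against 66.4% and 17 for Rgs16 and 72.4% and 27 for Rgs17. The median over all windows was 52.4% and 6 CpG. A match of letters is a description and does not show that a factor binds there.

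Rgs5, the neighbor of Rgs4, gave different values on each of its 4 probe sets. Its RNA is a known marker of pericytes, and the gene lies at chr1:169655501-169695813 on the plus strand. Its 3′ end faces that of Rgs4 across 45663 bases. On 1417466_at the signals were 79.9, 69.8 and 66.6 in wild type and 34.4, 112 and 146 in KO, with KO replicate 1 below and KO replicates 2 and 3 above the wild-type arrays. On 1420940_x_at they were 126, 34.0 and 40.8 against 150, 92.4 and 57.0, and the groups overlapped. The differences of these probe sets were 0.21 (standard error 0.48) and 0.64 (standard error 0.52), and neither passed. The _x_ in a probe set name marks probes that may bind other transcripts. Of the 2 probe sets under the filter, 1420941_at had signals of 7.12, 2.23 and 14.3 in wild type and 124, 81.4 and 85.2 in KO. All 3 KO arrays were above all wild-type arrays, and without the filter this probe set passed with a difference of 2.78 (standard error 0.51), a size that depends on the pseudocount since the wild-type signals are near it. The other, 1420942_s_at, had 2.42, 41.8 and 15.9 against 18.4, 25.1 and 5.43 and overlapped. Of the 13 pericyte and smooth muscle markers Kcnj8, Abcc9, Higd1b and Myh11 were under the filter, and 9 were tested. Pdgfrb was the 1 called higher, by 0.43 (standard error 0.10, adjusted p = 0.0362 from limma), and 0 were called lower. Its KO arrays read 3074, 3733 and 3970, against 2568, 2652 and 2751 for wild type. The other tested markers did not pass. Acta2, Tagln, Notch3 and Ndufa4l2 had differences above 0 (0.20, 0.12, 0.61 and 0.23). Cnn1, Des, Cspg4 and Mcam had differences below 0 (-0.49, -0.63, -0.12 and -0.69). Whether pericytes contributed to the Rgs5 values was not tested.

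The nearest tested genes on both sides of Rgs4 and Rgs5 showed no called difference. Between lowest coordinates, Nuf2 on the Rgs5 side lay 243543 bases from Rgs4. The others on that side, Mgst3, Aldh9a1, Tmco1 and Uck2, lay 2369511 to 2518582 bases away. On the Rgs4 side the distances were 208058 to 451945 bases. Genes between them that were not tested are not covered. Of the 5 tested genes on either side, 10 in all, none passed limma's adjusted threshold. Of all genes 3.97% were called higher and 3.91% lower, so the absence of a call among 10 is near that share. At an unadjusted p under 0.05, 0 were higher and 2 lower, and the methods' t-test gave 4 unadjusted and 0 adjusted. Nothing is read from these counts about the locus. Their differences were -1.17 to 0.20. Nuf2, a kinetochore gene on the Rgs5 side, had -0.12 (standard error 0.09), and Hsd17b7, an enzyme of cholesterol synthesis on the Rgs4 side, had -0.47 (standard error 0.15). The transcript 3110045C21Rik had -1.17 (standard error 0.39), with signals of 119 ± 16.6 (SD, n = 3) and 51.9 ± 25.9 (SD, n = 3). The collagen receptor gene Ddr2 had 0.15 (standard error 0.14). The remaining neighbors Uck2, Tmco1, Aldh9a1, Mgst3, Uap1 and Uhmk1 lay between -0.19 and 0.20.

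Rgs2, which favors Gq alpha subunits and lies at chr1:143999338-144004149, had no called probe set among 4. On the brightest, 1419248_at, the signals were 967, 939 and 1023 in wild type and 575, 606 and 983 in KO. KO replicates 1 and 2 were below and KO replicate 3 within the wild-type range, a difference of -0.48 (standard error 0.18). Without KO replicate 3 the difference was -0.72 and passed. On 1419247_at the signals were 612, 688 and 721 against 525, 513 and 607, which are barely apart, with a difference of -0.29 (standard error 0.12). The other probe sets, 1447830_s_at and 1443250_at, overlapped with differences of 0.06 (standard error 0.13) and 0.87 (standard error 0.60). The latter was dim, and its wild-type signals ranged from 9.99 to 85.1. Between the 4 probe sets of Rgs2 the correlations over the arrays were -0.57 to 0.88.

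**Figure D3:**
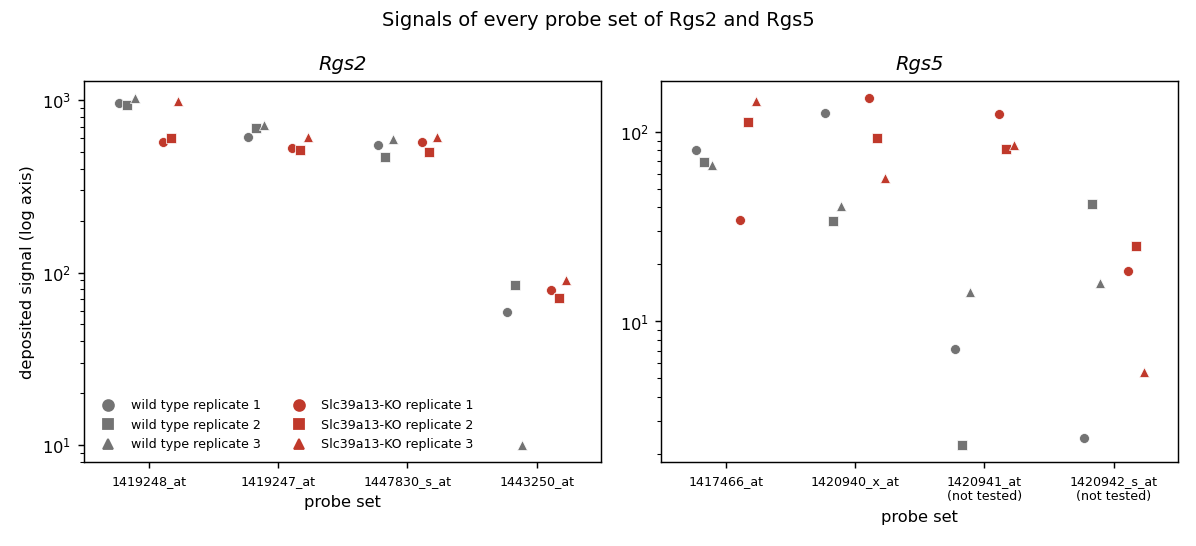
Deposited signals on a log axis of the 4 probe sets each of Rgs2 and Rgs5 on the wild-type (gray) and Slc39a13-KO (red) arrays, with a symbol for each replicate. The groups are apart on 1419247_at of Rgs2 and on 1420941_at of Rgs5, with 81.4 to 124 in KO and 2.23 to 14.3 in wild type, and overlap on the others.

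Rgs3, an R4 member with long isoforms that carry further domains, had 3 tested probe sets, and none passed limma's adjusted threshold or had an unadjusted p under 0.05. It lies at chr4:62559835-62703019. On 1425296_a_at the signals were 1219, 1329 and 1350 in wild type and 1208, 1115 and 1196 in KO, which are barely apart, with a difference of -0.15 (standard error 0.09). On 1425701_a_at the wild-type signals of 659 to 758 enclosed the KO signals of 692 to 744 (0.02, standard error 0.10). On the dim 1449516_a_at the difference was 0.05 (standard error 0.37), and 1454026_a_at stayed at 5.30 to 12.2 on all arrays and was not tested.

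No probe set of the R12 genes passed the adjusted threshold of limma. Rgs10, a short protein that acts on Gi alpha subunits, lies at chr7:128373621-128419506. Its only probe set, 1416882_at, had signals of 1114, 1135 and 1206 in wild type and 1010, 949 and 862 in KO. All KO arrays were below the wild-type arrays, by a difference of -0.29 (standard error 0.10). An unadjusted p under 0.05, seen for it alone of the 4 tested R12 probe sets, is no independent result. Rgs12, a large protein with additional PDZ and Ras-binding domains, lies at chr5:34948929-35039642. It had overlapping signals of 314 to 420 and 294 to 374 on 1453129_a_at, with a difference of -0.10 (standard error 0.16). On 1429380_at the signals were 60.8 to 87.1 and 70.4 to 117, a difference of 0.32 (standard error 0.33). The remaining probe set, 1457511_at, ranged from 3.91 to 56.2 on the 6 arrays and was not tested. Rgs14, which also binds Ras proteins, lies at chr13:55369732-55384687. It had signals of 84.6, 127 and 80.5 in wild type and 76.4, 65.3 and 107 in KO, which overlapped (-0.21, standard error 0.33).

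Rgs19, the other RZ member, lies at chr2:181688419-181694537. Its protein was first found as a partner of a Gi alpha subunit. On 1417786_a_at the signals were 2145, 1934 and 1937 in wild type and 2103, 2177 and 1961 in KO, a difference of 0.05 (standard error 0.09). On 1434940_x_at they were 763 to 963 and 647 to 1089 (-0.08, standard error 0.18). The groups overlapped on both, while Rgs17 of the same subfamily was apart on both of its probe sets. For the 7 genes without a call, no direction is read from counts by p. The share of all probe sets at limma's unadjusted limit is not given. Over these 7 genes, the 15 tested probe sets had differences of -0.48 to 0.87, 8 above and 7 below 0. By limma 0 were higher and 3 lower at an unadjusted p under 0.05, and the methods' t-test gave 2 unadjusted and 0 adjusted.

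The array also holds 9 further Rgs genes and the binding protein genes Rgs7bp and Rgs9bp, with 19 probe sets in all, of which 3 were above the filter, for Rgs9, Rgs20 and Rgs7bp. None passed limma's adjusted threshold or had an unadjusted p under 0.05, also with the methods' t-test. Rgs20, an RZ member, had signals of 58.6, 65.6 and 9.99 in wild type and 134, 87.3 and 72.9 in KO, a difference of 1.21 (standard error 0.57, adjusted p = 0.247 from limma). Rgs9, known from retina and striatum, had 0.31 (standard error 0.27, adjusted p = 0.536 from limma).

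The other genes of G protein signaling were taken from 8 lists of 193 genes, the further Rgs genes included, of which 138 were tested on their brightest probe set. Among these 4 were higher (2.90%) and 5 were lower (3.62%) in Slc39a13-KO chondrocytes, where 3.97% of all genes were called higher and 3.91% lower. The median difference of the 138 genes was 0.04 and that of all genes 0.01. Counts of each list at an unadjusted p under 0.05 follow below. The share of all genes at that limit is not given, so nothing is read from these counts.

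Of 24 tested G protein subunit genes 1 was lower and none higher by limma, with 4 higher and 5 lower at an unadjusted p under 0.05. The lower gene was Gnai2, which encodes a Gi alpha subunit and so a substrate of RGS proteins. Its signals were 5953, 6384 and 6299 in wild type and 4771, 4688 and 4491 in KO, a difference of -0.42 (standard error 0.07, adjusted p = 0.0103 from limma). Its dimmer probe set passed as well with -0.33 (standard error 0.08, adjusted p = 0.0387 from limma). The brighter did not pass without wild-type replicate 2 (adjusted p = 0.0754 from limma) or 3 (0.0564). Of 16 tested modulators of G proteins and receptors 1 was lower and none was higher, with 2 higher and 3 lower at an unadjusted p under 0.05. This was Grk5, a kinase that phosphorylates active receptors, with 691, 714 and 605 in wild type and 358, 450 and 507 in KO. Its difference was -0.61 (standard error 0.15, adjusted p = 0.0372 from limma), and the call was lost without any of the arrays other than KO replicate 3 (0.0519 to 0.161) and with a replicate block (0.0808) or a sex block (0.0598).

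Of 27 tested receptor genes, 1 was higher and 2 were lower by limma, with 3 and 7 at an unadjusted p under 0.05. Pth1r, the receptor for parathyroid hormone-related protein, had signals of 923, 1067 and 931 in wild type and 2325, 2127 and 2130 in KO. The difference was 1.17 (standard error 0.09, adjusted p = 0.000528 from limma), and it passed with every setting tried. S1pr3, a receptor for sphingosine 1-phosphate that couples to Gi and Gq, had signals of 1285, 1722 and 1611 in wild type and 650, 576 and 603 in KO. The difference was -1.32 (standard error 0.12, adjusted p = 0.000873 from limma), and its other 2 probe sets were lower on all KO arrays but did not pass (adjusted p = 0.0691 and 0.0919 from limma). Gprc5a, an orphan receptor, had -0.56 (standard error 0.13, adjusted p = 0.0361 from limma). Its call was lost without any array but KO replicate 1 (0.0507 to 0.154) and with a replicate block (0.0555) or a sex block (0.0607). Of 11 tested genes for ligands and their enzymes none passed, with 0 higher and 1 lower at an unadjusted p under 0.05 and 0 with the methods' t-test. Lowest in p were the adrenomedullin gene Adm with -0.46 (adjusted p = 0.133 from limma) and the sphingosine kinase gene Sphk2 with -0.34 (adjusted p = 0.324). The other probe set of each lay in the opposite direction, with 0.24 for Adm and 0.21 for Sphk2, and did not pass either.

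**Figure D4:**
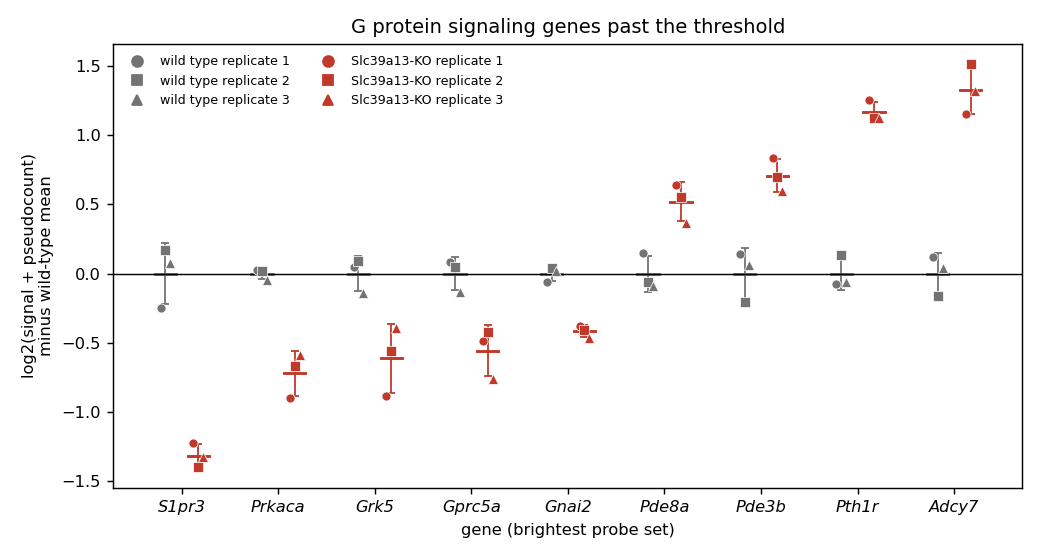
Log2(signal + 7.96) minus the wild-type mean for the 9 genes of the G protein signaling lists past the threshold, on the brightest probe set of each. Points are wild-type (gray) and Slc39a13-KO (red) arrays with a symbol for each replicate, lines are means and bars the SD of 3 arrays. S1pr3 lies lowest with a mean difference of -1.32 and Adcy7 highest with 1.33.

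Among 24 tested effector genes 1 was higher and none was lower, with 5 higher and 1 lower at an unadjusted p under 0.05. Adcy7, which encodes an adenylyl cyclase, had signals of 204, 166 and 192 in wild type and 426, 548 and 477 in KO. The difference was 1.33 (standard error 0.16, adjusted p = 0.00221 from limma), while its dimmer probe set had 0.84 and did not pass (adjusted p = 0.194 from limma). Of 23 tested genes of the cAMP arm 2 were higher and 1 was lower, with 3 and 5 at an unadjusted p under 0.05. Pde3b and Pde8a, which encode phosphodiesterases that degrade cAMP, were the higher ones. The difference of Pde3b was 0.71 with a standard error of 0.11 (adjusted p = 0.00764 from limma), and that of Pde8a was 0.52 with a standard error of 0.12 (adjusted p = 0.0280). Pde8a did not pass without any array but KO replicate 3 (0.0510 to 0.128), and its other probe set had 0.22. Prkaca, a catalytic subunit of protein kinase A, was lower on its brightest probe set, 1447720_x_at, with -0.72 (standard error 0.10, adjusted p = 0.00352 from limma). Its other probe set had 609, 614 and 613 in wild type and 690, 864 and 878 in KO, which is the opposite direction (0.39, adjusted p = 0.0820 from limma). Of 10 tested genes that cAMP or calcium is known to induce none passed, with 1 higher and 2 lower at an unadjusted p under 0.05 and 1 with the methods' t-test. Rcan1, a calcineurin inhibitor, had -0.48 (adjusted p = 0.0746 from limma) and passed without KO replicate 3. The phosphatase gene Dusp1 had -0.26 (adjusted p = 0.105). These were named for the lowest p and do not give the direction of the list. Of the 10 genes 6 had a difference above 0, and the median was 0.21. Fos had 1.01 (adjusted p = 0.107 from limma).

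Over the 6 arrays, the tested genes whose log2 values followed the brightest Rgs4 probe set most closely were Adam12 (Pearson r = 0.996), Pdgfrl (0.995), Manf (0.995), Tubg1 (0.995) and Trdmt1 (0.993), out of 12725 genes. A correlation of at least 0.95 was seen for 153 genes. The points share the groups, and the gap between wild type and KO sets most of these values. The KO minus wild-type differences were 1.14 for Adam12, 1.52 for Pdgfrl, 0.46 for Manf, 0.42 for Tubg1 and 0.44 for Trdmt1, all below the 2.54 of Rgs4.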

How the data were processed

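Total RNA of 6 samples of cultured chondrocytes was labeled with a one-cycle kit and hybridized to Affymetrix mouse genome arrays, 1 per sample. The deposited intensities are on a linear scale. The processing notes of the authors name MAS5 and their methods gcRMA. Each array has a mean of 500.003 without its lowest and highest 2% of probe sets and unequal quantiles, as MAS5 signals have, so the intensities were used as deposited. The number of arrays limits the precision. Of 45101 probe sets, 34958 have 1 gene symbol, 932 several and 9211 none. Of the first, 34754 matched a GRCm38.p6 gene table by Entrez identifier, which changed 0 symbols. Of the 45101, 64 are controls.

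The pseudocount of 7.96 is the 10th percentile of all values. Of the probe sets with 1 gene, 23309 had a mean log2 value at or above the 40th percentile (5.80). The groups were compared by limma 3.58.1 under R 4.3.3 (functions lmFit and eBayes, the latter with a variance trend), with no covariate. P-values were adjusted over the 23309 probe sets by Benjamini-Hochberg with a threshold of 0.05. Listed genes stand by their brightest tested probe set. The code was tested on simulated data. No source used here says that the arrays of a group came from separate animals or cultures, so the p-values cover only the spread among the arrays, possibly a technical one.

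Alternatives were to drop the filter or raise it to the 60th percentile, other pseudocounts (the 1st and the 25th percentile of the values), normalization by quantiles, 1 probe set a gene, no trend, the methods' t-test, a replicate or sex block, and each array left out. The arrays with low Xist alone, the fit of probe sets under the filter and the TATAAA search were added after the data were seen. The members, lists and tests were chosen with earlier results of these data known. Named were all members, from each list up to 4 called genes with the largest differences or, with no call, up to 2 of the lowest p, the 5 genes most like Rgs4, and the 5 tested neighbors on each side of Rgs4 and Rgs5. Gene positions and promoters are those of RefSeq (GRCm38.p6). The deposited files hold no coordinates. Listed genes not above the filter were not tested.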

Additional observations from a re-analysis of the deposited data

How the results depend on the processing

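The log2 differences of the 3 Rgs4 probe sets kept their direction with every alternative. They did not pass with the methods' t-test after adjustment (2.54, 2.17 and 2.59) and, for the 2 dimmer ones, without limma's trend (2.17 and 2.59). Of 23 tested member probe sets, 5 passed, but 1 did without the trend, 0 with the adjusted t-test (8 unadjusted) and 3 on the arrays with low Xist. Over all tested probe sets 802 were higher and 784 lower. These were 47 and 61 without the trend, 45 and 39 with the methods' t-test after adjustment and 2326 and 2043 before it, and 92 and 96 on the arrays with low Xist. Without 1 array they were 250 to 1074 higher and 189 to 1210 lower. Of the listed signaling genes 4 were higher and 5 lower. These were 2 and 1 without the trend, 1 and 1 with the adjusted t-test, 15 and 12 before adjustment, 1 and 1 with low Xist alone, and 4 and 3 with sex as a block. Such counts can include genes that the main fit did not call. Without 1 array they were 3 to 6 higher and 2 to 9 lower. Same-numbered arrays deviated with correlations of 0.03, 0.01 and -0.05. These show no strong shared deviation, but so few arrays cannot settle whether equal replicate numbers mark a pairing. With the replicate block 415 probe sets were higher and 422 lower, 6 member probe sets passed, and 4 listed genes were higher and 4 lower. Counting each other gene or probe set once per alternative, 534 stayed on their side of the threshold, called or not, 49 lost a call, 8 gained one, and no called value changed direction. Dim probe sets, such as those of Rgs5, vary widely within a group, which limits what 3 arrays can show for them.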
